A study of Homo sapiens with 30 samples.

Results

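Cells of a paclitaxel-resistant line and of its parental line, both exposed to the same dose of paclitaxel, were compared gene by gene in 4 poly-A RNA-seq libraries. The libraries were selected by their labels, 2 of the paclitaxel-resistant line and 2 of the parental line at 10 nM paclitaxel, out of 30 libraries in 15 groups of 2, and 12743 of the 20114 genes in the table had a CPM (reads relative to the library's total, scaled between libraries) of at least 1 in at least 2 libraries and were tested. Both are forms of SUM190, an established line of human inflammatory breast cancer. The drug was given 24 h after seeding and RNA was taken after 72 h with it. The 4 libraries of the same lines in DMSO, the solvent, 2 of each line, were used for the line difference without drug. The labels do not say how the resistant line was derived, whether it is 1 clone, or whether it had been kept in drug beforehand. They do not call the replicates separate cultures either; the spread behind each p-value is that among libraries and may be no more than technical.

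Paclitaxel binds beta-tubulin in the microtubule wall and stabilises the polymer. Spindles built from such microtubules do not attach and pull chromosomes normally, the spindle checkpoint holds cells in mitosis, and cells that leave this arrest may die, stop dividing or carry on with abnormal chromosome numbers. Known routes to resistance in cultured cells include efflux of the drug by ABC transporters, altered tubulin isotypes and altered regulators of mitosis and cell death.

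The epithelial identity of the cells was plain in all 4 libraries at 10 nM. EPCAM, an epithelial adhesion molecule, stood at 347 and 412 CPM in the parental libraries and 397 and 359 CPM in the resistant ones. ERBB2, the receptor tyrosine kinase HER2, stood at 2008 and 1686 CPM and 1743 and 2041 CPM, a difference that did not pass the test (adjusted p = 0.820, limma). Of 19 markers of stromal, endothelial and immune cells in the table, the T and B cell genes CD3E, CD3D and MS4A1 were at 0 in all 4 libraries. Only these and COL1A2, 4 in all, were at or under 3 reads in each library. Leaving out CD68 and CDH5, the highest value of a marker was 2.39 CPM. Of the 11 markers that were tested, 5 were lower and 1 higher in the resistant line. The summed CPM of the 19 was 48.2 and 44.4 in the parental libraries and 23.8 and 24.5 in the resistant ones, and without CD68, a lysosomal membrane protein, it was 11.7 and 10.7 against 11.2 and 10.7. Outside these markers, HGF and the antigen presentation gene HLA-DRA stood at 3.49 and 2.54 CPM in resistant library 2. Both were at or under 0.0663 CPM in the other libraries at 10 nM, and where these reads came from was not tested. The 4 libraries held 19291273 to 29755491 reads in genes, and 3 reads corresponded to 0.0994 to 0.147 CPM. In bulk RNA, fewer cells of a state and less RNA per cell cannot be told apart.

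Many genes in either direction differed between the lines under drug. Of 12743 genes, 3482 (27.3%) were higher and 2846 (22.3%) lower in the resistant line at an adjusted p under 0.05 (limma, Benjamini-Hochberg over all tested genes), 49.7% in all. The split was 3172 higher and 3144 lower with median-of-ratios scaling, and 3722 higher and 4186 lower with the correction for GC content and length. The median difference over all genes was 0.03 in log2(CPM + 1), the scale of every difference given here as resistant minus parental with its standard error, which understates the change of genes at few CPM. A difference of at least 1 was reached by 365 of the higher and 327 of the lower genes. In DMSO, 4154 genes (32.6%) differed, 2078 higher and 2076 lower (16.3% each). The counts in each gene list below are to be set beside these shares of all genes in the same condition. Of the genes higher at 10 nM, 1668 were also higher in DMSO (47.9% of the calls at 10 nM and 80.3% of those in DMSO), and 1402 were lower in both (49.3% and 67.5%). A test of the difference itself found 1370 genes (10.8%) whose line difference was not the same at 10 nM and in DMSO, more positive at 10 nM for 875 (6.87%) and more negative for 495 (3.88%). A call in a single condition, as given for some genes below, does not by itself show such a change. That test shares its libraries with the other 2 comparisons and depended on single libraries: it called 639 genes without resistant DMSO library 1, 727 without resistant DMSO library 2 and 680 without resistant library 1 at 10 nM. With the correction for GC content and length it called 1537 genes with a more positive and 1764 with a more negative difference, and with only the 8 libraries compared 135 and 142.

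**Figure D1:**
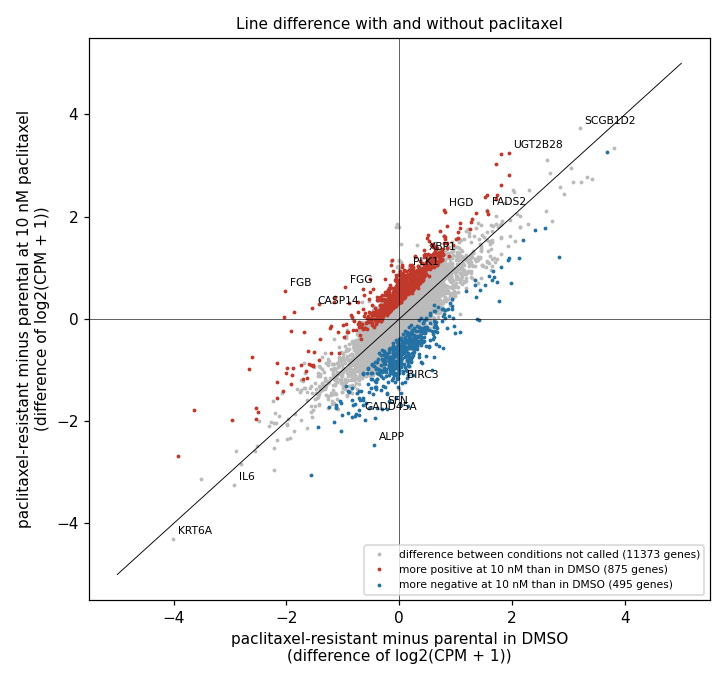
Difference between the paclitaxel-resistant and the parental line in DMSO (x axis) and at 10 nM paclitaxel (y axis), both as log2(CPM + 1), for 12743 genes; each point is 1 gene and the diagonal marks equal differences. Coloured points are the 875 genes with a more positive and the 495 with a more negative difference at 10 nM, and most points lie near the diagonal.

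The machinery of mitosis was higher in the resistant line under drug. Of 30 genes of G2/M and mitosis, 29 were higher and none lower, with a median difference of 0.64 against 0.03 over all genes. In DMSO the median was 0.19, and for 16 of the 30 the difference was more positive at 10 nM than in DMSO. That count was 6 without resistant DMSO library 1, 10 without resistant DMSO library 2, 7 without resistant library 1 at 10 nM and 10 without parental library 1 at 10 nM. PLK1, the kinase that drives centrosome maturation and chromosome segregation, stood at 57.4 and 48.1 CPM in the parental libraries and 103 and 103 CPM in the resistant ones at 10 nM. Both resistant libraries lay above both parental ones, by 0.96 ± 0.10 (adjusted p = 3.92e-08, limma). In DMSO the same gene stood at 83.6 and 103 CPM in parental and 101 and 108 CPM in resistant cells, where the difference did not pass the test (adjusted p = 0.216, limma), and the 2 differences differed from each other (adjusted p = 9.34e-04, limma). ASPM, which organises spindle poles, stood at 67.1 and 73.2 CPM against 181 and 181 CPM under drug, the largest difference of the 30 (1.36 ± 0.16). NEK2, a kinase that separates centrosomes, followed at 30.6 and 33.1 CPM against 85.1 and 69.7 CPM (1.25 ± 0.10). The mitotic cyclin gene CCNB2 stood at 61.2 and 63.3 CPM against 109.8 and 87.3 CPM (0.65 ± 0.09, adjusted p = 5.01e-06, limma), while in DMSO its 4 libraries spanned 109 and 106 CPM in parental and 107 and 110.2 CPM in resistant cells. CCNB1 and TOP2A, the topoisomerase that untangles sister chromatids, were higher by 0.62 ± 0.09 and 0.86 ± 0.12. WEE1, the kinase that restrains CDK1, was the member that was not called (-0.02 ± 0.10).

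The promoters of 3 of these genes are shown because each holds the pair of elements known from cell cycle genes, CHR (TTTGAA, bound by the MuvB complex) and CCAAT (bound by NF-Y), in capitals on either strand. They are taken from RefSeq (GRCh38.p14), run 5′ to 3′ on the gene's own strand and end at the base before the annotated start: PLK1 at chr16:23678789-23678888 (plus strand), ASPM at chr1:197146670-197146819 (minus strand) and CCNB2 at chr15:59105016-59105145 (plus strand).
PLK1: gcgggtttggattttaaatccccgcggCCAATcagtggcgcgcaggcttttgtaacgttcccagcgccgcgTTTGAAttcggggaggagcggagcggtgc
ASPM: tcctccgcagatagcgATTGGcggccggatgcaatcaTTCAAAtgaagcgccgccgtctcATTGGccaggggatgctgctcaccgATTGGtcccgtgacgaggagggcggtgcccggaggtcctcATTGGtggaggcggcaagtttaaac
CCNB2: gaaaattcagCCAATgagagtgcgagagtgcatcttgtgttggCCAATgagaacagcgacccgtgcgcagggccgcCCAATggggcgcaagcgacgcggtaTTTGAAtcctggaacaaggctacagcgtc
Among the 24 list members with a promoter entry, 16 (66.7%) held TTTGAA or its complement and 19 (79.2%) held CCAAT or its complement within 250 bases before the start, against 13.6% and 33.0% of all 27305 promoters of that length.

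Genes of the spindle checkpoint and kinetochore were higher in the resistant line in 19 of 25 cases and lower in 2 (median 0.48). In DMSO the median was 0.03. NUF2, a subunit of the kinetochore complex that grips microtubules, stood at 24.0 and 30.1 CPM in the parental and 73.9 and 64.8 CPM in the resistant libraries (1.33 ± 0.15, adjusted p = 1.04e-07, limma). CENPE, the kinesin that carries chromosomes to the spindle equator, stood at 50.7 and 58.8 CPM against 116 and 108 CPM (1.02 ± 0.14). The checkpoint kinases BUB1 and BUB1B were higher by 0.75 ± 0.09 and 0.68 ± 0.09, and the checkpoint effector MAD2L1 by 0.65 ± 0.12. In each of these 5 genes both resistant libraries lay above both parental ones, as they did for 36.8% of all genes. In DMSO BUB1B stood at 123 and 118 CPM against 123 and 124 CPM, so that the lines overlapped there. The share of promoters with TTTGAA was 30% of the 20 members with an entry, and with CCAAT 55%.

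DNA replication genes showed the same direction in 32 of 35 members, with none lower (median 0.42). In DMSO the median was 0.03, and 20 of the 35 had a more positive difference at 10 nM, or 11 without resistant DMSO library 1 and 10 without resistant library 1 at 10 nM. GINS1, a subunit of the replicative helicase, stood at 31.8 and 28.0 CPM in parental and 75.4 and 72.4 CPM in resistant libraries (1.28 ± 0.10, adjusted p = 2.45e-10, limma), and its partner GINS2 at 24.5 and 23.4 CPM against 49.1 and 41.7 CPM (0.89 ± 0.09). POLA1, the catalytic subunit of the polymerase that starts DNA strands, stood at 24.96 and 26.2 CPM against 56.8 and 50.3 CPM (1.03 ± 0.08). The resistant libraries were thus above the parental ones in each of these, as for 36.8% of all genes. RRM2, which makes deoxynucleotides, stood at 305 and 341 CPM against 554 and 505 CPM under drug and at 675 and 574 CPM against 620.1 and 639 CPM in DMSO. Its line difference was 0.71 ± 0.10 at 10 nM and 0.02 ± 0.10 without drug, and the test of the change between them gave an adjusted p of 0.00364 (limma). Ligase LIG1 and the sliding clamp PCNA were higher by 0.92 ± 0.12 and 0.89 ± 0.11. The median change from DMSO to 10 nM over the 35 genes was -0.58 in parental cells and -0.09 in resistant cells, and over the 30 genes of mitosis it was -0.61 and -0.19. Among 31 replication genes with a promoter entry, 13 (41.9%) held an E2F element (GGCGGGAA, TTTGGCGC or TTTCGCGC, either strand), against 3.71% of all promoters. Stretches of 2 of them are shown with the element in capitals, GINS2 at chr16:85688955-85689014 (minus strand) and POLA1 at chrX:24693768-24693917 (plus strand), from RefSeq (GRCh38.p14).
GINS2: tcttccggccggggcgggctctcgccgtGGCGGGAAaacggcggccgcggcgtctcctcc
POLA1: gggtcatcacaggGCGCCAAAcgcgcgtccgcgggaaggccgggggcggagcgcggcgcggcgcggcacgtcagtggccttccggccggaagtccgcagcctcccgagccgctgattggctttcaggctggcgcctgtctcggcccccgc

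The arrest genes CDKN2B and CDKN1A and several stress genes that p53 can induce were lower in the resistant line. CDKN2B, which encodes p15, stood at 96.8 and 107 CPM in the parental and 32.6 and 34.1 CPM in the resistant libraries at 10 nM, and at 51.1 and 52.2 CPM against 32.2 and 33.1 CPM in DMSO. The parental libraries were higher in both conditions, and the difference was larger under drug (-1.58 ± 0.09 against -0.64 ± 0.09, adjusted p of the change = 2.82e-05, limma). CDKN1A, which encodes p21, stood at 71.6 and 62.4 CPM against 21.5 and 22.1 CPM at 10 nM and at 45.7 and 57.6 CPM against 20.4 and 21.0 CPM in DMSO, with differences of -1.57 ± 0.11 and -1.27 ± 0.11 that did not pass the test of a change (adjusted p = 0.216, limma). CDKN2C, which encodes the inhibitor p18, went the other way (0.78 ± 0.09). In the wider list of 21 G1/S cyclins, kinases and inhibitors, 8 were higher and 5 lower (median 0.21), with 5 higher without resistant library 2 or parental library 2 and 3 lower without parental library 1. Of 28 p53 target genes tested, 13 were lower and 1 higher, with a median of -0.33, and in DMSO 10 were lower and 4 higher (median -0.17). Their share called at 10 nM, 50%, was close to the 49.7% of all genes, of which 27.3% were higher and 22.3% lower. GADD45A, a DNA damage response gene, stood at 67.8 and 75.5 CPM against 19.2 and 18.3 CPM under drug and at 16.3 and 16.9 CPM against 9.99 and 9.59 CPM without it (change of the line difference -1.17 ± 0.14, adjusted p = 1.29e-05, limma). GDF15, a secreted stress cytokine, stood at 124 and 123 CPM against 34.6 and 36.1 CPM (-1.77 ± 0.09), close to its difference in DMSO (-1.53 ± 0.09). MDM2, also a p53 target, was not called (-0.07 ± 0.12, or -0.15 and called lower with the correction for GC content and length), and the called gene that was higher was CCNG1 (1.06 ± 0.16). SFN, the 14-3-3 sigma protein that keeps CDK1 in the cytoplasm, stood at 261 and 212 CPM against 61.0 and 77.4 CPM under drug, but at 69.0 and 99.6 CPM against 66.7 and 67.6 CPM in DMSO, where the line difference did not pass the test (adjusted p = 0.105, limma). The change of its line difference was -1.46 ± 0.20 (adjusted p = 4.24e-05, limma).

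Genes that promote and genes that oppose cell death were both among those lower in the resistant line. Of 22 genes of the BCL2 family and apoptosis, 8 were lower and 3 higher (median -0.14). The share called, 50%, was close to the 49.7% of all genes. BMF, a BH3-only protein that promotes death and is held on the cytoskeleton, stood at 36.2 and 32.8 CPM in parental and 8.98 and 11.2 CPM in resistant libraries (-1.68 ± 0.16, adjusted p = 6.34e-09, limma). BBC3, the BH3-only protein PUMA, stood at 7.88 and 6.96 CPM against 2.02 and 3.19 CPM at 10 nM and at 1.25 and 2.10 CPM against 2.45 and 1.33 CPM in DMSO, so the lines overlapped only without drug. BCL2L11, the BH3-only protein BIM, was lower by -0.97 ± 0.10. Among protectors, BIRC3, an inhibitor of apoptosis protein and NF-kB target, stood at 1060 and 1313 CPM against 472 and 524 CPM under drug and at 231 and 172 CPM against 207 and 207 CPM without it (change -1.30 ± 0.24, adjusted p = 0.00151, limma). BCL2L1, which encodes BCL-XL, differed by -0.62 ± 0.11, and MCL1 was not called (-0.07 ± 0.08), but was called lower with the correction for GC content and length (-0.18, adjusted p = 0.00412, limma). With the correction for GC content and length, 13 of the 22 were lower.

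**Figure D2:**
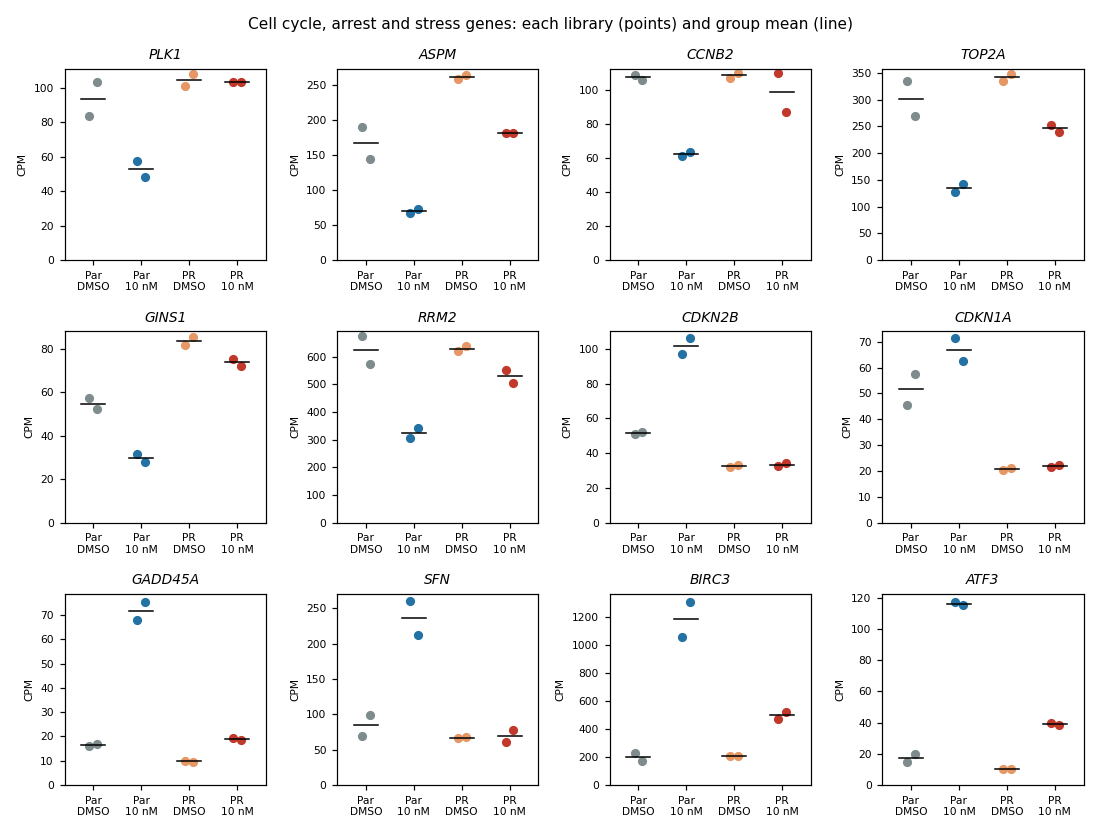
CPM (y axis, from 0) of 12 genes of the cell cycle, arrest and stress in each library of the parental (Par) and paclitaxel-resistant (PR) line in DMSO and at 10 nM paclitaxel; points are libraries and lines are means of 2. PLK1, CCNB2 and RRM2 are lowest in parental cells under drug, while GADD45A, SFN, BIRC3 and ATF3 are highest there.

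Among the tubulins, the targets of the drug, more genes were lower than higher. Of 15 tested, 6 were lower and 2 higher in the resistant line (median -0.31), 53.3% called against 49.7% of all genes. The higher ones were the beta-tubulin TUBB (0.19 ± 0.07) and the gamma-tubulin TUBG1 (0.44 ± 0.11). Neither was called without parental library 2, and TUBB was not called either without resistant library 1, with median-of-ratios scaling or with only the libraries compared. TUBB3, the class III beta-tubulin isotype that has been linked to taxane resistance, stood at 38.4 and 38.0 CPM in parental and 11.3 and 11.5 CPM in resistant libraries (-1.66 ± 0.11, adjusted p = 2.27e-11, limma). In DMSO the order was the same, 26.0 and 31.6 CPM against 11.0 and 13.1 CPM. The alpha-tubulin TUBA1C stood at 671 and 646 CPM against 431 and 384 CPM (-0.69 ± 0.08), and TUBA1A and TUBB2A differed by -0.68 ± 0.10 and -0.65 ± 0.10. TUBB4B, an abundant beta-tubulin, stood at 435 and 412 CPM against 443 and 416 CPM and did not pass the test (adjusted p = 0.885, limma). Tubulin genes are similar in sequence, and reads shared between them could have been split in counting.

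Of 41 microtubule-associated proteins and kinesins, 19 were higher and 7 lower (median 0.16). The higher ones included mitotic kinesins, KIF14 at 28.9 and 33.8 CPM against 75.4 and 72.3 CPM (1.21 ± 0.14), KIF11, which slides spindle poles apart, at 59.7 and 73.5 CPM against 128 and 117 CPM (0.87 ± 0.14), and KIF20A (0.81 ± 0.08). STMN1, which takes up tubulin dimers and destabilises microtubules, was higher as well (0.64 ± 0.06), with 149 and 155 CPM against 249 and 226 CPM. MAP1B, which binds and stabilises microtubules, was among the lower ones, at 28.97 and 24.3 CPM against 9.64 and 8.51 CPM (-1.45 ± 0.15). Without resistant library 1, 4 genes in place of 7 were lower.

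In a list of drug transport and metabolism genes, which also holds the vault protein gene MVP, 3 of 10 tested were higher and 3 lower (60% called, against 49.7% of all genes). ABCB1, which encodes the efflux pump P-glycoprotein, did not reach the filter: it stood at 0.578 and 0.637 CPM in the parental and 0.298 and 0.228 CPM in the resistant libraries at 10 nM, and at 0 to 0.0322 CPM in the 4 DMSO libraries. The uptake carrier SLCO1B3 was at 0 in the 8 libraries. ABCC4, an efflux transporter of the same superfamily, stood at 16.2 and 19.3 CPM against 4.24 and 3.46 CPM at 10 nM and at 15.5 and 15.2 CPM against 3.54 and 2.83 CPM in DMSO, lower in the resistant line in both (-1.95 ± 0.13 and -1.97 ± 0.13). ABCC3 was higher (0.62 ± 0.10), with 48.7 and 45.8 CPM against 69.3 and 77.1 CPM. Without resistant library 2, or without parental library 1, 1 gene of the 10 in place of 3 was higher.

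Transcripts of several ligands and receptors of the IL6 family, which acts through gp130 and the JAK kinases on STAT3, were lower. Of 12 genes tested, 7 were lower and 1 higher (median -0.73), and in DMSO 5 were lower and 2 higher (median -0.08). IL6 itself stood at 15.8 and 19.4 CPM in parental and 0.762 and 1.18 CPM in resistant libraries at 10 nM, a mean lower 18.2-fold (-3.24 ± 0.14, adjusted p = 1.87e-14, limma). In DMSO it stood at 15.5 and 16.5 CPM against 1.10 and 1.38 CPM. The receptor gene IL6R showed another pattern, at 124 and 114 CPM against 60.2 and 64.4 CPM under drug and at 36.1 and 39.9 CPM against 36.9 and 41.0 CPM in DMSO, where the libraries of the lines overlapped. The change of its line difference was -0.96 ± 0.11 (adjusted p = 3.92e-06, limma). LIF, another ligand, the shared receptor subunit IL6ST (gp130) and the oncostatin M receptor OSMR were lower by -0.78 ± 0.13, -0.71 ± 0.14 and -0.75 ± 0.10. Of 22 JAKs, STATs and their regulators, 7 were higher and 5 lower (median -0.05), with 3 lower when any 1 of the 4 libraries was left out. Calls made up 54.5% of that list, against 49.7% of all genes. JAK1 and STAT3 were not called (-0.07 ± 0.08 and -0.08 ± 0.07), but both were called lower with the correction for GC content and length (-0.19 and -0.15, adjusted p = 0.00178 and 0.00545, limma). STAT5B was higher, with 19.8 and 20.9 CPM against 33.7 and 33.7 CPM (0.70 ± 0.08). SOCS3, the feedback inhibitor that STAT3 induces, stood at 8.67 and 7.84 CPM against 1.82 and 2.47 CPM (-1.56 ± 0.18). Of 22 genes listed as STAT3 targets, 17 were lower and 2 higher (median -0.53), and in DMSO 15 were lower and 3 higher (median -0.50). NNMT, a methyltransferase, was lower by -1.66 ± 0.09, and TIMP1, an inhibitor of matrix proteases, was higher by 0.75 ± 0.11.

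Inflammatory genes that NF-kB can induce were lower almost throughout. Of 25 tested, 21 were lower and 1 higher (median -0.68), and in DMSO 12 were lower and 1 higher (median -0.34). IL8, a neutrophil chemokine, stood at 619 and 916 CPM in parental and 162 and 182 CPM in resistant libraries (-2.13 ± 0.18, adjusted p = 1.28e-09, limma). CXCL2, a related chemokine, stood at 33.5 and 33.9 CPM against 7.42 and 6.95 CPM under drug and at 17.9 and 16.4 CPM against 3.63 and 3.48 CPM in DMSO, with line differences of -2.08 ± 0.13 and -1.99 ± 0.13. TNFAIP3, the feedback inhibitor A20, stood at 50.8 and 46.8 CPM against 19.8 and 21.0 CPM under drug and at 10.2 and 12.8 CPM against 7.97 and 8.45 CPM in DMSO, and its line difference was more negative at 10 nM by -0.79 ± 0.16 (adjusted p = 0.00228, limma). The cytokine CSF2 stood at 5.20 and 4.16 CPM against 0.431 and 0.988 CPM, and the NF-kB subunit RELB at 10.2 and 9.60 CPM against 5.24 and 5.66 CPM. IL1B and CCL20 were lower by -1.49 ± 0.16 and -1.35 ± 0.13. CCL2, a monocyte chemokine, was the gene that was higher, at 4.04 and 7.25 CPM against 14.4 and 9.95 CPM (1.01 ± 0.19, or 0.65 without parental library 1).

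A kappa-B element (GGGNN followed directly by TTTCC, either strand) was found in the promoter window of 9 of 20 list members with an entry (45%), against 1.73% of all promoters. For 3 of the lower genes it lies close to the start and is shown in capitals, CXCL2 at chr4:74099196-74099295 and CXCL3 at chr4:74038690-74038789 (both minus strand) and TNFAIP3 at chr6:137867179-137867258 (plus strand), from RefSeq (GRCh38.p14).
CXCL2: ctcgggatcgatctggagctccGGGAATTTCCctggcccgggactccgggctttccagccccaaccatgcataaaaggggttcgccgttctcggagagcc
CXCL3: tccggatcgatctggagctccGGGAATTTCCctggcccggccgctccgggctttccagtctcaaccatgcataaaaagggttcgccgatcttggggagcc
TNFAIP3: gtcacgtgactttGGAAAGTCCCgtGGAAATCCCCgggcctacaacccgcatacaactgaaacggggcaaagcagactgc
CXCL3, whose stretch resembles that of its neighbour CXCL2, stood at 2.31 and 2.01 CPM in parental and 0.795 and 0.342 CPM in resistant libraries (-1.02 ± 0.14), and reads could have been split between the 2 genes.

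Immediate early genes, which are induced within minutes to hours by stress or growth factors, were lower in 15 of 20 cases and higher in 2 (median -0.76). In DMSO 9 were lower and 3 higher (median -0.30). For 9 of the 20 the difference was more negative at 10 nM, or for 5 without resistant DMSO library 2 or without resistant library 1 at 10 nM. The median change from DMSO to 10 nM was 0.73 in parental and 0.19 in resistant cells. ATF3, a stress-induced transcription factor, stood at 117 and 115 CPM in parental and 39.9 and 38.7 CPM in resistant libraries under drug, and at 15.0 and 19.9 CPM against 10.1 and 10.2 CPM in DMSO. Its line difference was -1.54 ± 0.12 at 10 nM (adjusted p = 3.37e-10, limma) and more negative than in DMSO (adjusted p = 0.00285, limma). The AP-1 subunit FOSL1 stood at 17.3 and 13.1 CPM against 2.98 and 4.52 CPM (-1.78 ± 0.17), and JUN, another subunit, at 97.5 and 91.2 CPM against 54.1 and 52.3 CPM (-0.81 ± 0.09). In DMSO the JUN difference did not pass the test (adjusted p = 0.140, limma), and a test of its change is not given here. ZFP36, which marks cytokine mRNAs for decay, was lower by -0.96 ± 0.13. EGR1 was an exception: at 10 nM its libraries overlapped, at 66.3 and 60.9 CPM and 60.7 and 66.1 CPM, whereas in DMSO it was higher in the resistant line, at 31.6 and 36.5 CPM against 89.1 and 90.1 CPM (1.37 ± 0.09). In the integrated stress response list 9 of 24 were lower and 4 higher (median -0.10), 54.2% called against 49.7% of all genes. PPP1R15A, the phosphatase subunit GADD34, stood at 96.0 and 67.6 CPM against 22.4 and 26.4 CPM, and DDIT3, the transcription factor CHOP, at 44.0 and 41.3 CPM against 26.3 and 27.9 CPM. The amino acid gene ASNS and the transcription factor ATF4 were not called (0.14 ± 0.10 and -0.17 ± 0.08), and ATF4 was called lower with median-of-ratios scaling (-0.20) and with the correction for GC content and length (-0.14). Without parental library 2, 2 genes of the stress response list in place of 4 were higher.

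Interferon-stimulated genes were split. At 10 nM 16 of 40 were higher and 10 lower (median 0.11), and in DMSO 16 were higher and 6 lower (median 0.26). IFI27 stood at 3.42 and 2.99 CPM in parental and 30.5 and 24.2 CPM in resistant libraries (2.74 ± 0.22, adjusted p = 4.20e-10, limma), and OAS2, which senses double-stranded RNA, at 4.00 and 4.16 CPM against 18.7 and 14.5 CPM (1.78 ± 0.15). Both were also higher in DMSO, by 3.42 ± 0.22 and 2.58 ± 0.15. In contrast, IFIT2 stood at 29.05 and 20.5 CPM against 11.2 and 8.66 CPM, and OASL at 5.57 and 3.28 CPM against 0.961 and 0.684 CPM. Their line differences were -1.23 ± 0.14 and -1.55 ± 0.23, and that of OASL was more negative than in DMSO (adjusted p = 0.00487, limma). The class I gene HLA-B, whose reads are similar to those of other class I genes, and its partner B2M were higher by 1.002 ± 0.14 and 0.56 ± 0.10, in a list where 6 of 18 antigen presentation genes were higher and 2 lower. That list had 44.4% called, against 49.7% of all genes. Without resistant library 1, 6 interferon-stimulated genes were lower in place of 10, and without parental library 2, 3 antigen presentation genes were higher in place of 6.

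Keratins and cornified envelope genes of stressed or differentiating squamous epithelium gave the lowest median of the 32 lists at 10 nM. Of 31 genes of basal and squamous type, 24 were lower and 3 higher in the resistant line at 10 nM (median -1.12), and in DMSO 22 were lower and 3 higher (median -0.91). KRT6A, a keratin of activated epidermal cells, stood at 233 and 268 CPM in parental and 11.0 and 12.4 CPM in resistant libraries, a mean lower 21.4-fold (-4.31 ± 0.15, adjusted p = 2.97e-16, limma). In DMSO it stood at 263 and 305 CPM against 16.4 and 16.9 CPM. Its near-identical copies KRT6B and KRT6C were lower by -2.58 ± 0.16 and -3.12 ± 0.18, and reads could have been split among the 3. The small proline-rich protein gene SPRR1B, which is cross-linked into the cornified envelope, stood at 31.4 and 28.9 CPM against 3.35 and 5.24 CPM (-2.58 ± 0.19). SPRR1A stood at 17.2 and 15.4 CPM against 3.15 and 4.37 CPM under drug and at 3.32 and 5.19 CPM against 1.64 and 1.497 CPM in DMSO. The envelope protein gene IVL (involucrin) and the cross-linking enzyme gene TGM2 were lower by -2.36 ± 0.18 and -2.83 ± 0.13. KLK5, a skin serine protease, was higher (1.53 ± 0.14), as was TP63, the transcription factor of basal epithelium (0.77 ± 0.14). The basal keratin gene KRT14 was under the filter, at 0.743 and 0.931 CPM in parental and 0.0663 and 0.190 CPM in resistant libraries, and KRT17 was at 0.

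KRT4 and CASP14 had far smaller line differences under drug than in DMSO. CASP14, a caspase of keratinocyte cornification, stood at 127 and 116 CPM in parental and 138 and 141 CPM in resistant libraries at 10 nM (adjusted p = 0.0966, limma, or 0.0447 with voom on recovered reads), and at 548 and 602 CPM against 194 and 199 CPM in DMSO. The parental libraries were well above the resistant ones only in DMSO, and the change of the line difference was 1.75 ± 0.14 (adjusted p = 7.67e-08, limma). KRT4, a mucosal keratin, stood at 11.5 and 11.9 CPM against 7.09 and 6.08 CPM under drug and at 18.4 and 23.6 CPM against 2.45 and 2.75 CPM in DMSO (change 1.86 ± 0.18). An AP-1 element (TGAGTCA, either strand) lay in the promoter window of 8 of 18 basal and squamous genes with an entry (44.4%), against 4.16% of all promoters. It is shown in capitals for SPRR1A at chr1:152983961-152984080 and SPRR1B at chr1:153031053-153031202, both on the plus strand, from RefSeq (GRCh38.p14).
SPRR1A: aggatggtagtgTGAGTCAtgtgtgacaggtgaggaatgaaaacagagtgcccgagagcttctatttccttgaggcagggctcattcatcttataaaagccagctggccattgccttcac
SPRR1B: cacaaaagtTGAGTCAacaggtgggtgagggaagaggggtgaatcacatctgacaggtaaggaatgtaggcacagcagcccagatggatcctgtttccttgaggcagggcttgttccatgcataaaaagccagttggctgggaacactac

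Mesenchymal and matrix genes were mostly lower, 17 of 26 with 3 higher (median -0.67). CD44, a hyaluronan receptor, stood at 158 and 159.6 CPM in parental and 48.0 and 47.6 CPM in resistant libraries (-1.71 ± 0.09, adjusted p = 9.32e-13, limma), and ITGA5, the fibronectin receptor subunit, at 168 and 146 CPM against 45.1 and 46.8 CPM (-1.75 ± 0.11). SNAI2, a transcription factor that represses epithelial genes, stood at 10.0 and 10.3 CPM against 1.49 and 2.81 CPM. Its line difference was -1.86 ± 0.18 under drug and -0.77 ± 0.18 in DMSO. FN1, fibronectin, was lower by -1.42 ± 0.12. The collagen gene COL8A1 was higher, at 0.289 and 0.294 CPM against 3.18 and 4.18 CPM (1.85 ± 0.14).

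Luminal genes were divided between keratins and transcription factors. Of 24 luminal genes, 10 were higher and 5 lower (median 0.14). The simple keratins KRT8 and KRT18 were lower, KRT8 at 896 and 827 CPM in parental and 365 and 377 CPM in resistant libraries (-1.21 ± 0.11) and KRT18 at 669 and 642 CPM against 336 and 318 CPM (-1.003 ± 0.10). KRT19 was not called (0.22 ± 0.10), but was called higher with the correction for GC content and length (0.27). The transcription factors SPDEF, which drives secretory differentiation, and TFAP2B were higher, SPDEF at 25.7 and 19.1 CPM against 52.2 and 71.9 CPM (1.43 ± 0.14, adjusted p = 1.36e-08, limma) and TFAP2B by 1.44 ± 0.07. The pioneer factor FOXA1 was higher by 0.61 ± 0.10. Without resistant library 1, or without parental library 1, 3 luminal genes in place of 5 were lower.

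The list of cholesterol synthesis and uptake had the highest median of the 32 lists at 10 nM. Of 24 genes of cholesterol synthesis and uptake, 21 were higher and 1 lower in the resistant line at 10 nM (median 0.91), and in DMSO 18 were higher and 1 lower (median 0.67). FDFT1, squalene synthase, stood at 65.6 and 62.6 CPM in parental and 176 and 147 CPM in resistant libraries under drug (1.31 ± 0.09, adjusted p = 1.70e-11, limma) and at 147 and 138 CPM against 241 and 235 CPM in DMSO. SREBF2, the transcription factor that controls the pathway, stood at 142 and 127 CPM against 267 and 281 CPM (1.02 ± 0.09). STARD4, a sterol carrier, and MVD, a mevalonate pathway enzyme, were higher by 1.29 ± 0.13 and 1.22 ± 0.14. The median change from DMSO to 10 nM over the list was -0.58 in parental and -0.30 in resistant cells. A sterol regulatory element (TCACNCCAC, either strand) was found in 1 of 18 promoters of the list (5.56%), against 0.875% of all promoters.

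Of 18 genes of fatty acid synthesis and desaturation, 13 were higher and 2 lower (median 0.51). FADS2, the delta-6 desaturase, stood at 41.8 and 34.1 CPM in parental and 168 and 171 CPM in resistant libraries (2.14 ± 0.16, adjusted p = 1.60e-10, limma), the largest difference of both lipid lists. Its level in DMSO was 137 and 154 CPM against 433 and 428 CPM, so the parental libraries under drug were the lowest of the 8. SCD, the delta-9 desaturase, stood at 383 and 338 CPM against 628 and 614 CPM, and FASN, fatty acid synthase, at 483 and 395 CPM against 638 and 811 CPM (0.72 ± 0.15). FADS3 was lower (-1.10 ± 0.14).

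Chaperones of the endoplasmic reticulum were higher under drug in 11 of 20 cases and lower in 2 (median 0.29), whereas the median in DMSO was -0.08. For 10 of the 20 the difference was more positive at 10 nM, or for 6 without resistant DMSO library 1, resistant library 1 at 10 nM or parental library 2 at 10 nM. XBP1, the transcription factor of the unfolded protein response and of secretory cells, stood at 561 and 566 CPM in parental and 1408 and 1294 CPM in resistant libraries under drug and at 1173 and 1183 CPM against 1628 and 1578 CPM in DMSO. The parental libraries at 10 nM were the lowest of the 8, and the change of the line difference was 0.82 ± 0.08 (adjusted p = 1.10e-06, limma). HSP90B1, the chaperone GRP94, stood at 732 and 783 CPM against 1210 and 1096 CPM under drug, and at 1622 and 1449 CPM against 1444 and 1415 CPM in DMSO, where it did not pass the test (adjusted p = 0.385, limma). CRELD2 was higher by 0.85 ± 0.11, and DNAJB9 was lower by -0.62 ± 0.12.

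Genes of hypoxia and glycolysis were lower in the resistant line in DMSO in 21 of 30 cases with none higher (median -0.33), but at 10 nM in 7 cases with 5 higher (median -0.03). At 10 nM 40% of the list was called, against 49.7% of all genes. ADM, adrenomedullin, was lower in both conditions, at 30.8 and 31.2 CPM in parental and 11.0 and 10.3 CPM in resistant libraries under drug (-1.46 ± 0.12). The glycolytic gene LDHA stood at 1610 and 1687 CPM against 1735 and 1456 CPM at 10 nM and at 2467 and 2366 CPM against 1782 and 1829 CPM in DMSO. Its line difference was -0.05 ± 0.08 under drug (-0.17 and called lower with the correction for GC content and length) and -0.42 ± 0.08 without it. Without resistant library 1, or without parental library 2, 2 genes of the list in place of 5 were higher, and with the correction for GC content and length 12 in place of 7 were lower.

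**Figure D3:**
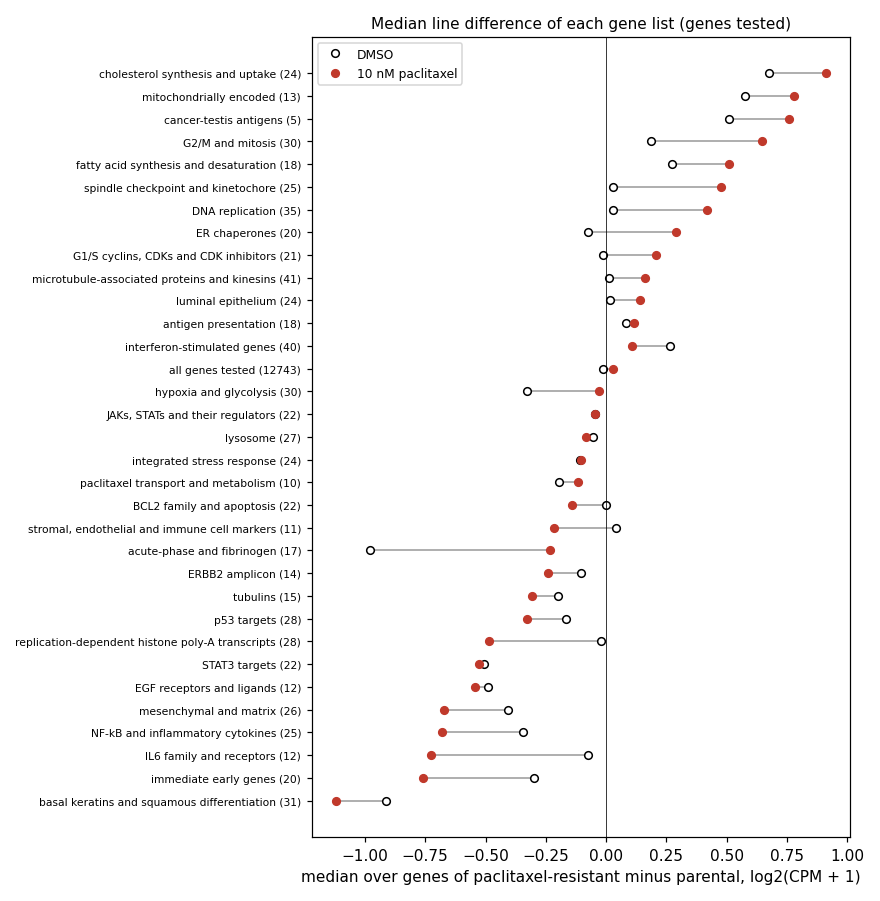
Median over the tested genes of each of 32 lists (their number in brackets) and over all tested genes of the difference between the paclitaxel-resistant and the parental line, in log2(CPM + 1), in DMSO (open points) and at 10 nM paclitaxel (filled points). Mitosis, spindle checkpoint and replication lists lie further to the right at 10 nM, immediate early and NF-kB lists further to the left, and cholesterol synthesis stands at the right end in both conditions. Basal keratins are at the left end at 10 nM, and the acute-phase list in DMSO.

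The fibrinogen chains and several other liver-type secreted proteins had line differences that were not the same in the 2 conditions. Of 17 acute-phase and fibrinogen genes, 3 were higher and 12 lower in DMSO (median -0.98), but 6 were higher and 7 lower at 10 nM (median -0.23), and for 9 the difference was more positive under drug, for none more negative. FGB, the fibrinogen beta chain, stood at 1334 and 1169 CPM in parental and 320.2 and 292 CPM in resistant libraries in DMSO (-2.03 ± 0.12), but at 117 and 134 CPM and 200.2 and 168 CPM at 10 nM (0.55 ± 0.12). The lines thus stood in opposite order, with all 4 libraries at 10 nM below the DMSO libraries of the same line. FGG, the gamma chain, behaved alike, at 4824 and 3941 CPM against 2314 and 2177 CPM in DMSO and 668 and 824 CPM against 1249 and 1045 CPM under drug (adjusted p of the change = 4.41e-07, limma). FGA, the alpha chain, stood at 8.74 and 8.99 CPM against 1.73 and 1.70 CPM in DMSO and was near the floor at 10 nM, at 0.495 and 0.539 CPM against 1.03 and 0.380 CPM. CP, the copper protein ceruloplasmin, stood at 490.4 and 529 CPM against 1114 and 993 CPM under drug (1.05 ± 0.10) and did not pass the test in DMSO (-0.14 ± 0.10). C3, SAA1 and SERPINA1 were lower in both conditions, by -1.45 ± 0.10, -1.09 ± 0.15 and -1.17 ± 0.08 at 10 nM. The protease inhibitor A2M was higher, at 3.75 and 2.89 CPM against 19.4 and 16.1 CPM (2.12 ± 0.15).

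**Figure D4:**
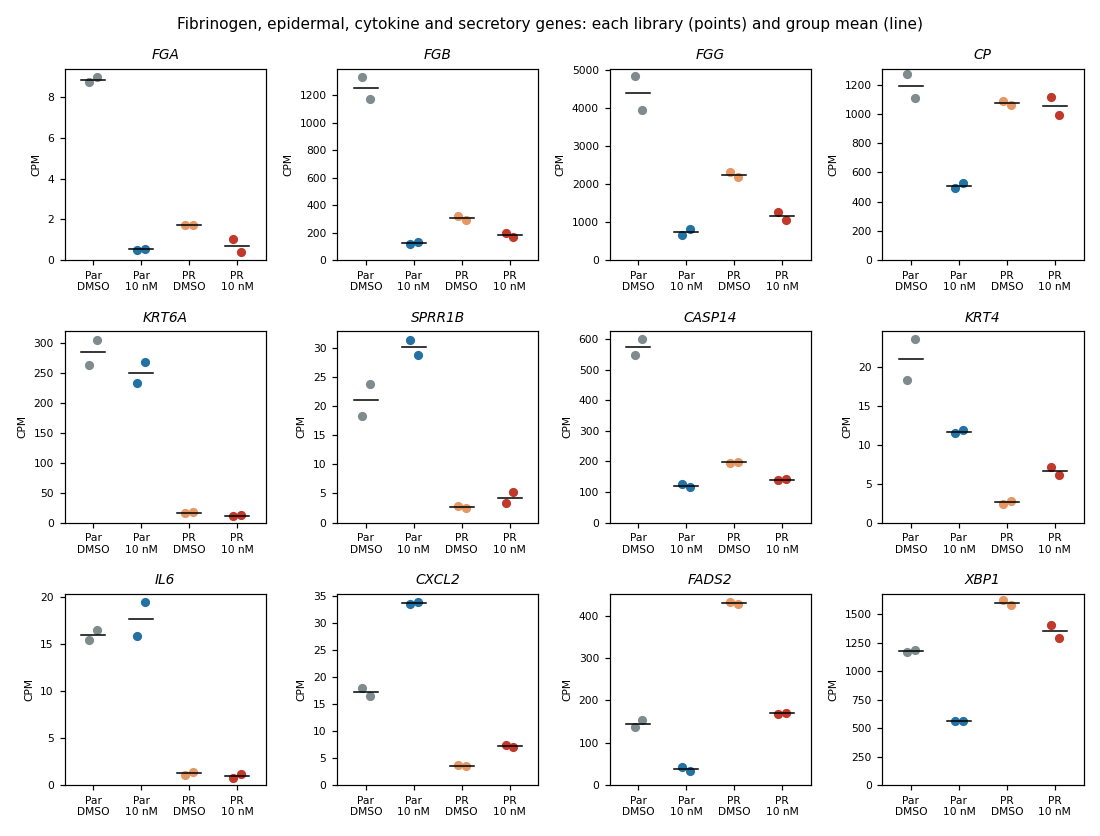
CPM (y axis, from 0) of 12 genes of fibrinogen, epidermal, cytokine and secretory type in each library of the parental (Par) and paclitaxel-resistant (PR) line in DMSO and at 10 nM paclitaxel; points are libraries and lines are means of 2. KRT6A, SPRR1B, IL6 and CXCL2 are low in both resistant groups, while FGB, CASP14, FADS2 and XBP1 are lower in parental cells under drug than in parental cells in DMSO.

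Most ligands of the EGF receptor were lower. Of 12 genes of ligands and receptors, 7 were lower and 2 higher (median -0.54). HBEGF stood at 62.4 and 60.4 CPM in parental and 18.9 and 17.7 CPM in resistant libraries (-1.69 ± 0.09, adjusted p = 3.21e-13, limma), and EPGN at 513 and 654 CPM against 200.1 and 183 CPM (-1.59 ± 0.14). TGFA and AREG were lower by -0.88 ± 0.09 and -1.11 ± 0.18, whereas EGFR and ERBB3 were not called (-0.12 ± 0.07 and 0.07 ± 0.07). EGFR was called lower with the correction for GC content and length (-0.20). Of 14 genes in the ERBB2 amplicon on the long arm of chromosome 17, none was higher and 4 were lower (median -0.24). These were 28.6% of the list, against 22.3% of all genes that were lower. GRB7, an adaptor that binds ERBB2, stood at 887 and 761 CPM against 282 and 347 CPM under drug and at 280.4 and 376 CPM against 261 and 257 CPM in DMSO (change -1.07 ± 0.18, adjusted p = 5.60e-04, limma). The count of lower amplicon genes was 7 without parental library 2 and with median-of-ratios scaling, and 8 with the correction for GC content and length.

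Of 27 lysosomal genes, 5 were higher and 8 lower (median -0.08), 48.1% called against 49.7% of all genes. GPNMB, a glycoprotein of lysosomes and melanosomes, was the list gene with the largest positive difference, at 8.67 and 10.3 CPM in parental and 24.7 and 22.3 CPM in resistant libraries (1.23 ± 0.15). SQSTM1, the autophagy receptor p62, was lower by -0.45 ± 0.10. With the correction for GC content and length 13 of the 27 were lower. Of 34 cancer-testis antigen genes, 32 were in the table, 5 passed the filter and 4 of these (80%) were higher, against 27.3% of all genes. MAGEA3 and MAGEA6 were below 1 CPM in the parental libraries at 10 nM and in DMSO. A gene that low in the parental line, with enough reads only elsewhere, could hardly be called lower. Such a gene can also pass the filter through the resistant libraries, where it is high. Neither the count of higher genes nor the lack of lower ones is therefore a result about the list. MAGEA3 stood at 0.619 and 0.245 CPM in parental and 14.2 and 12.6 CPM in resistant libraries (3.34 ± 0.26), and MAGEA6 at 0.289 and 0.686 CPM against 8.91 and 9.23 CPM (2.77 ± 0.16). The 2 genes are near-identical copies, with promoter windows that matched in 250 of 250 bases, and reads could have been split between them.

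The largest differences under drug were for the most part also present without it. The 12 genes with the largest positive difference, among called genes with a mean of at least 5 CPM in 1 group and no overlap between the lines' libraries, were SCGB1D2, MAGEA3, SYT13, UGT2B28, MUC5B, RHAG, UGT2B11, CNTN1, SCGB2A2, H2AFY2, MAGEA6 and IFI27. Libraries of the 2 lines did not overlap for 4692 genes higher (36.8%) and 4115 lower (32.3%) in the resistant line. SCGB1D2 and SCGB2A2 (lipophilin B and mammaglobin), secreted proteins of mammary epithelium that form a complex, stood at 11.7 and 8.87 CPM against 174 and 126 CPM and at 249 and 272 CPM against 2227 and 1602 CPM. Their differences were 3.73 ± 0.18 and 2.86 ± 0.13 at 10 nM and 3.21 ± 0.18 and 2.67 ± 0.13 in DMSO. SYT13, a synaptotagmin, stood at 8.005 and 7.94 CPM against 89.6 and 80.9 CPM (3.26 ± 0.09). UGT2B28 and UGT2B11, similar enzymes that conjugate steroids, stood at 9.04 and 9.21 CPM against 101 and 89.8 CPM and at 6.81 and 5.78 CPM against 62.6 and 54.5 CPM, and both had a more positive difference under drug (1.30 ± 0.17 and 1.31 ± 0.18). MUC5B, a gel-forming mucin, stood at 6.93 and 3.38 CPM against 45.5 and 63.7 CPM (3.22 ± 0.30), with a wide gap between its replicates in both lines. RHAG, a Rhesus-associated glycoprotein of red blood cells, stood at 0.330 and 0.0980 CPM against 11.8 and 7.56 CPM, and the adhesion molecule CNTN1 at 0.578 and 0.588 CPM against 10.6 and 11.7 CPM. H2AFY2, a macroH2A histone variant, stood at 1.44 and 1.91 CPM against 17.7 and 17.7 CPM (2.81 ± 0.14).

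Of the 12 genes with the largest negative difference by the same rule, 11 are reported: KRT6A, IL6, KRT6C, SEMA7A, TGM2, C2CD4A, KRT6B, SPRR1B, HTR3A, SPRR3 and ALPP. SEMA7A, a membrane-anchored semaphorin, stood at 18.5 and 16.6 CPM in parental and 1.06 and 1.79 CPM in resistant libraries (-2.95 ± 0.19, adjusted p = 1.13e-11, limma), and HTR3A, a serotonin receptor channel, at 11.5 and 10.5 CPM against 0.994 and 1.18 CPM (-2.52 ± 0.12). C2CD4A stood at 38.8 and 38.0 CPM against 4.87 and 5.39 CPM under drug and at 82.9 and 83.8 CPM against 4.85 and 4.33 CPM in DMSO, so that its difference was less negative at 10 nM by 1.23 ± 0.12. ALPP, placental alkaline phosphatase, stood at 6.23 and 6.42 CPM against 0.530 and 0.152 CPM under drug, and at 0.364 and 0.419 CPM against 0.0422 and 0 CPM in DMSO, where all 4 libraries were below 1 CPM. SPRR3 stood at 35.0 and 33.3 CPM against 4.77 and 5.81 CPM (-2.49 ± 0.15).

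**Figure D5:**
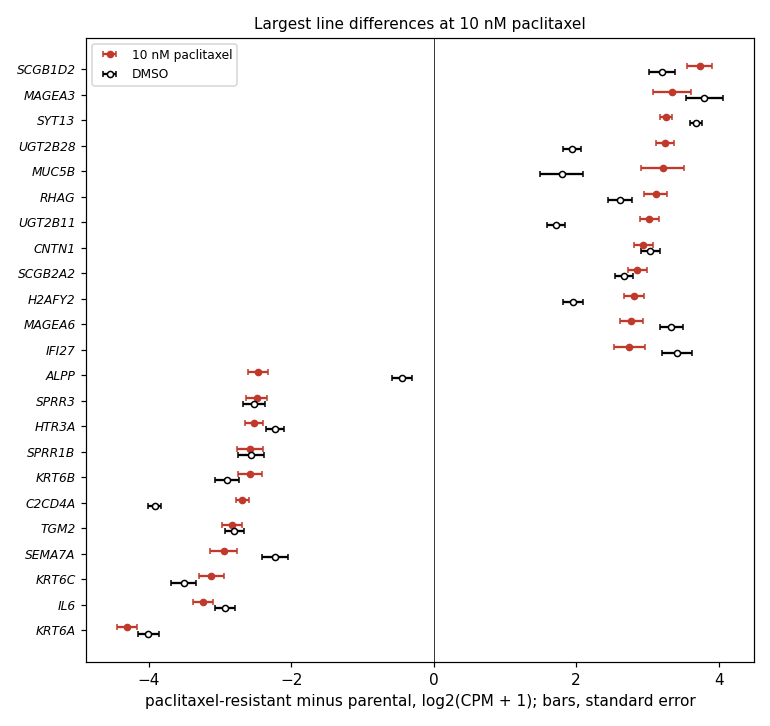
Difference between the paclitaxel-resistant and the parental line in log2(CPM + 1), at 10 nM paclitaxel (filled points) and in DMSO (open points), for the 12 genes with the largest positive and 11 of the 12 with the largest negative difference at 10 nM; bars are standard errors from limma. All 23 genes lie more than 1 unit from 0 in both conditions except ALPP, whose DMSO difference is -0.45.

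Transcripts that are sensitive to RNA handling also differed. Poly-A transcripts of replication-dependent histones, which normally lack a poly-A tail, were lower in 13 of 28 cases with none higher (median -0.49), but in 4 without resistant library 2 and in 3 without parental library 1. Of 13 mitochondrially encoded genes, 6 were higher and none lower (median 0.78), with a summed level of 10743 and 9300 CPM in the parental and 15518 and 19506 CPM in the resistant libraries. That count was 1 without resistant library 2, 0 without parental library 2 and 2 with the correction for GC content and length. The difference between replicates followed GC content across genes, with a Spearman correlation of -0.747 in the parental and 0.373 in the resistant libraries at 10 nM over 10142 genes, which are not independent replicates. In DMSO it was 0.859 in the parental libraries, the highest of the 15 groups in size, and 0.0790 in the resistant ones, and the mitochondrially encoded genes differed between the 2 parental DMSO libraries by 0.906 in the median. Those libraries enter the comparison in DMSO and the test of the change. The part of GC content in the results was not tested beyond the correction given here.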

How the data were processed

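The series holds 30 poly-A RNA libraries of SUM190 cells in 15 groups. The submitters' processing notes name the aligner STAR 2.5.1b, the package edgeR and the build GRCh37 (hg19); the sources used here do not state which counter and which annotation were used. Deposited values are log2(CPM + 1) with TMM scaling by the authors, per the file headers. They were whole multiples of 1 read in every library (100% within 0.01), which gave 18443749 to 32669995 reads per library, and 3 reads corresponded to 0.0947 to 0.163 CPM. Such floors cover counting error only.

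limma 3.58.1 in R 4.3.3 was fitted to the deposited log2 values of 12743 genes that reached 1 CPM in 2 or more libraries, as means of 15 groups (residual degrees of freedom 15, prior degrees of freedom 8.08 in the median, trend and robust options), so each gene's spread comes from all groups. Tests were two-sided with Benjamini-Hochberg adjustment over all genes within each of 3 comparisons, and calls were made at an adjusted p under 0.05. On simulated data for the comparison at 10 nM with 12743 genes, the test called 48 of 67 genes at a 1.5-fold change, 66 of 67 at 2-fold and 66 of 66 at 4-fold, beside 6 unchanged genes. The simulated noise was normal and independent between genes, and all changed genes had at least 5 CPM in the parental group. It held no deviations that follow GC content, and far fewer changed genes than were called in the data. These rates therefore need not hold for the real libraries. The 32 gene lists held 821 genes, of which 707 were tested, 110 were under the filter and 4 were not found in the table; some genes are in more than 1 list. The members and lists were chosen with earlier results of these data known, and lists are described by counts and medians, not tested. Named genes are list members or, per direction, the 12 with the largest difference at 10 nM (mean of at least 5 CPM in 1 group, libraries not overlapping) and, among such genes called at 10 nM, the 10 with the largest called change of that difference; some genes that meet these rules are not reported here, but stay in the tests and counts. The alternatives were a pseudocount of 0.25, no filter, median-of-ratios scaling, the replicate number as a block, fewer samples in the fit, voom on recovered reads, a correction for transcript GC content and length (values for 99.5% of tested genes) and leaving out each library. Promoter sequences came from RefSeq (GRCh38.p14), not the build of the alignment. Python 3.11.15 and pandas 2.3.3 handled tables.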

Additional observations from a re-analysis of the deposited data

Results flagged for a closer look

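The line difference was not the same at 10 nM paclitaxel and in DMSO for 1370 genes by a test of the difference itself, more positive under drug for 875 and more negative for 495 (limma, adjusted p under 0.05). Among genes that were also called at 10 nM, with libraries of the lines not overlapping there, the rule for named genes took the 10 largest changes in each direction, so that CASP14 and EGR1, not called at 10 nM, are not among them. Of the genes so chosen, 10 with a more positive and 9 with a more negative difference are given here, with the change of their line difference in log2(CPM + 1).

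Among genes with a more positive difference, the fibrinogen genes FGB and FGG changed by 2.57 ± 0.16 and 1.58 ± 0.15, and the mineralisation inhibitor gene MGP by 1.87 ± 0.25, from -3.65 ± 0.17 in DMSO to -1.78 ± 0.17 at 10 nM. KRT4 changed by 1.86 ± 0.18 and the calcium-binding protein gene S100A8 by 1.31 ± 0.16, both still lower in the resistant line under drug. HGD, which breaks down homogentisate, changed by 1.33 ± 0.11, with 83.9 and 81.9 CPM in parental and 144 and 144 CPM in resistant libraries in DMSO and 30.4 and 32.0 CPM against 152 and 128 CPM under drug. AKR1C1, an aldo-keto reductase with near-identical relatives, changed by 1.30 ± 0.12 and turned from -0.51 ± 0.08 to 0.78 ± 0.08. The paralogs UGT2B11 and UGT2B28 changed by 1.31 ± 0.18 and 1.30 ± 0.17. MUC5B changed by 1.42 ± 0.43, a call that was lost without 1 of 5 libraries (both resistant DMSO libraries, parental DMSO library 2, and library 2 of either line at 10 nM), with only the libraries compared (adjusted p = 0.1096, limma) and with voom on recovered reads (adjusted p = 0.0521, limma).

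Among genes with a more negative difference, SFN changed by -1.46 ± 0.20. MAFF, a small basic leucine zipper transcription factor induced by stress, changed by -1.59 ± 0.19, from 0.58 ± 0.14 in DMSO to -1.01 ± 0.14 at 10 nM, with 61.5 and 58.7 CPM in parental and 28.4 and 30.5 CPM in resistant libraries under drug. GEM, a small GTPase, changed by -1.71 ± 0.21, and its DMSO libraries of both lines lay between 1.58 and 2.27 CPM. C2orf54 changed by -1.62 ± 0.18, but stayed higher in the resistant line in both conditions (2.83 ± 0.13 and 1.21 ± 0.13). CMYA5, VGF and ACTBL2 changed by -1.85 ± 0.29, -1.49 ± 0.27 and -1.36 ± 0.20, and their levels in DMSO were below 2 CPM. ALPP and EID3 changed by -2.02 ± 0.20 and -1.505 ± 0.27, from DMSO levels below 1 CPM, and neither was called with voom on recovered reads (adjusted p = 0.6285 and 0.3528).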

How the results depend on the processing

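Of 150 genes named in the text and called at 10 nM, 148 kept their call and direction in every setting tried, the exceptions being TUBB and TUBG1, with the difference moving by over 1.5 times for CCL2 without parental library 1 (0.65) and for 10 genes at low CPM with a pseudocount of 0.25 or voom, on which scales it was larger. The comparison at 10 nM called 6328 genes, between 4968 and 5644 without 1 library and between 5323 and 7908 in the other settings. The comparison in DMSO called 4154 genes, between 2828 and 4317 without 1 library, and 2432 with only the libraries compared. The test of the change called 1370 genes, between 639 and 1573 without 1 library, 277 with only the libraries compared and 3301 with the correction for GC content and length. The cause of these moves was not tested, except that a fit on fewer libraries has fewer residual degrees of freedom. Median-of-ratios scaling shifted the median of all genes by -0.03 and the GC and length correction by -0.06.

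The replicate block gave 6239, 4020 and 1274 calls in the 3 comparisons and changed no call of a named gene at 10 nM. Same-numbered libraries of the 2 lines deviated with a correlation of -0.350 at 10 nM and -0.00728 in DMSO, so the numbers were not taken to pair them; a crossed replicate block, chosen after seeing the data, gave 6224, 4005 and 1254 calls.

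Of the named genes that were not called at 10 nM, 9 were called in a setting: ATF4, EGFR, JAK1, LDHA, MCL1, MDM2 and STAT3 as lower and KRT19 as higher with the correction for GC content and length (8 genes), ATF4 also with median-of-ratios scaling, and CASP14 as higher with voom. Some genes that were not called changed sign near 0. Without 1 library the difference ran from -0.0644 to 0.0562 for EGR1, -0.125 to 0.119 for EPCAM, -0.0901 to 0.161 for ERBB2, -0.137 to 0.418 for FGA, -0.179 to 0.0740 for LDHA, -0.143 to 0.00894 for MCL1, -0.169 to 0.00759 for STAT3, -0.0256 to 0.0636 for TUBB4B and -0.0450 to 0.00448 for WEE1. It was 0.00220 for EGR1 with the GC and length correction and -0.0160 for TUBB4B with median-of-ratios scaling. Levels below the 3-read floor were not reliable at this depth. Line differences that are small beside a gene's spread, which was estimated over all groups, could have been missed.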

Other observations

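Genes listed for this comparison but under the filter still had reads, and several stood out in resistant library 2 at 10 nM alone. HGF stood at 3.49 CPM there and at 0 in the rest of the 8 libraries at 10 nM and in DMSO. The class II gene HLA-DRA stood at 2.54 CPM there and at 0 to 0.0663 CPM in the rest, and SCD5 at 0.836 CPM against at most 0.147 CPM. HLA-DRB1, another class II gene, stood at 0.304 CPM there against at most 0.0490 CPM, and ZEB2 at 0.228 CPM against at most 0.0404 CPM. Where these reads came from was not tested. STAT5A, the partner of STAT5B, stood at 0.206 and 0.147 CPM in the parental and 0.828 and 0.836 CPM in the resistant libraries at 10 nM, so both resistant libraries were above both parental ones. TNF stood at 0.784 and 0.588 CPM against 0.464 and 0.380 CPM at 10 nM, and at 0 to 0.202 CPM in the 4 DMSO libraries. The brain beta-tubulin TUBB4A stood at 0.165 and 0.294 CPM against 0.265 and 0.836 CPM at 10 nM, where the lines overlapped. CYP3A4 and CYP2C8, liver enzymes that metabolise paclitaxel, stood at or below 0.228 CPM in the 4 libraries at 10 nM. None of these genes was tested, and levels near 3 reads are uncertain.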
